A study of Mus musculus with 8 samples.

Results

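A pair of site 1 libraries whose labels differed only in the guide RNA was compared. The joins captured with Cas9 cutting at the bait could thus be set against those that the same bait primer gave without a cut there. Both came from Neuro-2a cells, a mouse neuroblastoma line, transfected with PX458, a plasmid that carries spCas9, a guide and a GFP reporter. The targeting library had the site 1 sgRNA and the non-targeting library a control sgRNA, and neither had ataxin-7. Members were chosen by their labels, 2 of the 8 libraries of the series. The remaining site 1 libraries (10Q and 92Q, the same cutting guide with ataxin-7 carrying 10 or 92 glutamines) and the site 2 pair are used only beside this comparison. For each condition, 5000000 cells were transfected, 3 transfections were pooled after 48 h, 1000000 cells with GFP were collected by flow cytometry, and their DNA was broken to 750 bp. Each condition is therefore 1 pooled library of 1 cell line, sorted for transfected cells, so guide and library cannot be told apart. The DNA assay gives no expression with which to check the cell type. The design text names a quality control for site 2 only, so the site 1 comparison depends on the label of its positive control.

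The assay reads from a biotinylated primer beside the cut into whatever DNA follows it, called the prey. A double-strand break is usually rejoined by end joining, often with loss of bases from the ends, and a broken end can also be joined to a break elsewhere. Libraries of this kind are known for many joins close to the cut, left by end resection before rejoining, and for a broad scatter of joins along the bait chromosome and to other chromosomes. The bait lay in Dach1, which encodes a nuclear cofactor of the dachshund family that acts with the Eya and sine oculis homeobox proteins in development. Its paralog Dach2 encodes a protein of the same family.

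The guide and the bait primer, which are the only designed sequences of the comparison, are given from the labels so that the cut and the primer can be told apart. Capitals in the guide mark the 12 bases next to the PAM, the seed that Cas9 pairs first.
Site 1 protospacer: ggtagacaTCAGCGCTGTTG
Site 1 bait primer: actaaaaagagcgcccctctttc

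The bait end, taken as the 5′ end with most non-targeting reads, was chr14:98168726 on the plus strand of mm10. RefSeq (GRCm38.p6) places it 1039 bp inside the 5′ end of Dach1 (chromosome 14, 97786846 to 98169765, transcribed toward lower coordinates). The reads thus ran out of Dach1 and toward Gm33583, a long non-coding RNA gene at 98169904 to 98188620. Exon and UTR boundaries were not analysed here.

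The targeting library held 8812 reads, of which 8788 lay on assembled chromosomes, and the non-targeting library held 625. A junction was counted once for each chromosome, 5′ end and strand. This gave 3873 distinct junctions in the targeting library and 128 in the non-targeting library, 4001 of the 11310 in the series. The number of reads sequenced is not given in the sources used here, so the ratios are not scaled to depth. With 1 library a condition, every test compares these 2 libraries and has no replicate check. Intervals cover counting error only, because PCR copies that carry no molecular identifier cannot be told from separate molecules.

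Counted as distinct junctions in each distance class, the libraries differed least within 10 bp of the bait end and far more in the DNA around it. At the bait end the non-targeting library had 378 reads, 60.5% of its total, and the targeting library 190, or 2.16%, a ratio of 0.503 (95% interval 0.42 to 0.60). Within 10 bp of it the distinct junctions numbered 8 in the non-targeting library and 11 in the targeting library, whose ratio of 1.38 has an interval from 0.504 to 3.94. From 11 bp to 10 kb, plus-strand junctions numbered 11 in the non-targeting library and 1336 in the targeting library, 121-fold more (67.7 to 244). The size of this ratio depends on how positions are counted, and it was 395 counted as reads. Merging within 5 bp, here and below, joined each run of starts on 1 strand, with gaps of at most 5 bp, into 1 position. A run could be of any length, so merging thinned dense stretches most. In the targeting library, downstream plus-strand starts at 11 bp to 1 kb fell from 431 to 5. The ratio was then 28.0 (15.4 to 56.7), from 308 against 11. Among distinct positions without merging, plus-strand junctions at 11 bp to 10 kb were the class with the highest ratio among those found in both libraries.

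Other classes on chromosome 14 were seen in the targeting library alone. Minus-strand junctions at 11 bp to 10 kb numbered 321 in the targeting library and 0 of 128 in the non-targeting library, where a count of 0 allows a share of up to 2.34%. Taking 3 junctions as the floor of a library, that class was at least 107-fold higher. Junctions from 10 kb to 1 Mb numbered 325 against 0, at least 108-fold higher, and those from 1 to 20 Mb 175 against 0, at least 58.3-fold higher. Junctions beyond 20 Mb on chromosome 14 were found in both libraries, 183 against 8, a ratio of 22.9 (11.4 to 53.8).

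**Figure D1:**
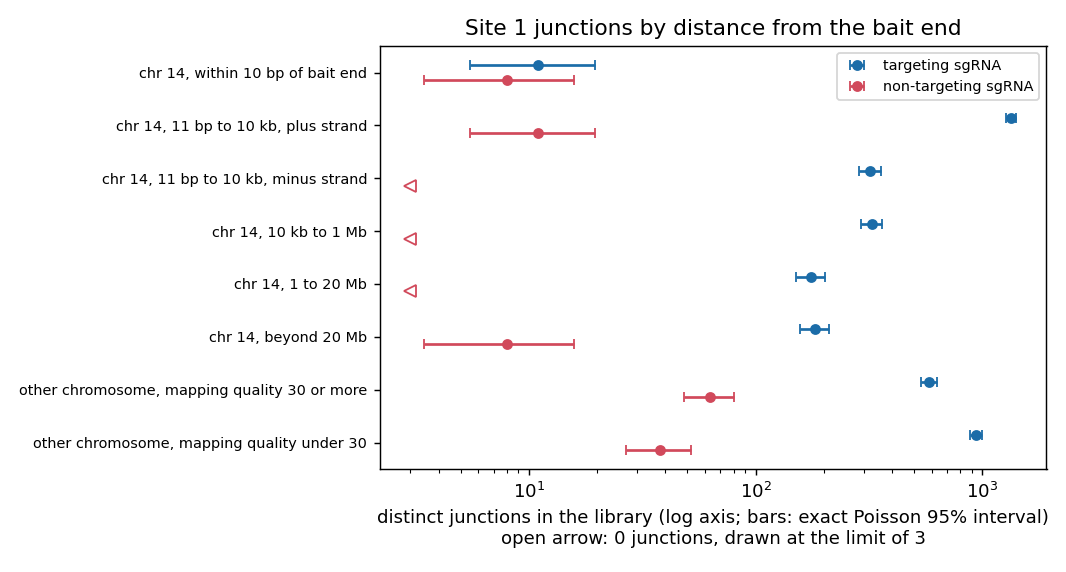
Distinct junctions in each distance class of the targeting (blue) and non-targeting (red) site 1 libraries on a log axis, with exact Poisson 95% intervals; open arrows stand for 0 junctions, drawn at the limit of 3. The intervals overlap within 10 bp of the bait end, with 11 and 8 junctions, and in no other class.

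The ratio between the libraries was lower for joins to other chromosomes than for joins beside the bait. The targeting library had 1522 and the non-targeting library 101, a ratio of 15.1 (12.3 to 18.6). Those of mapping quality 30 or more (called well mapped here: the aligner placed the read at 1 site with little doubt) numbered 583 against 63, a ratio of 9.25 (7.13 to 12.2). Those of lower mapping quality numbered 939 against 38, a ratio of 24.7 (17.9 to 35.1), and these intervals do not overlap. A junction took the highest mapping quality among its reads, so one with more reads could pass more easily. Junctions on other chromosomes had a mean of 1.50 reads in the targeting and 2.04 in the non-targeting library.

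Shares of all distinct junctions gave the same order. Junctions within 10 kb of the bait end made up 43.1% of the targeting library (41.5 to 44.6, Clopper-Pearson 95%) and 14.8% of the non-targeting library (9.18 to 22.2; 2-sided exact test of Fisher, adjusted p = 1.45e-10 over 8 share tests). The difference, 28.2 points, was 10.9 points after runs with gaps of at most 5 bp were merged (20.8% against 9.92%, Fisher's exact test, adjusted p = 0.00403). With every read counted the difference turned, to 62.1% against 65.4% (Fisher's exact test, adjusted p = 0.104). That test took PCR copies as independent units, and 378 of the 409 non-targeting reads in that window started at the bait end. With the same cutting guide, distinct junctions within 10 kb made up 36.7% of the 10Q library (35.5 to 38.0). They made up 23.2% of the 92Q library (20.3 to 26.2), whose interval overlaps the non-targeting one. From 10 kb to 1 Mb the shares were 8.14% in 10Q and 2.70% in 92Q (1.70 to 4.05, against a non-targeting 0 to 2.84). Libraries with the same guide thus differed among themselves, which was not tested. The targeting share from 10 kb to 1 Mb was 8.39%, against 0% in the non-targeting library (Fisher's exact test, adjusted p = 0.000107). The share on chromosome 14 beyond 1 Mb, 9.24% against 6.25%, did not pass (Fisher's exact test, adjusted p = 0.359). Junctions with a single read made up 60.7% and 64.8%, a difference that did not pass either (Fisher's exact test, adjusted p = 0.359).

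The near-bait junctions of the targeting library lay on both sides of the bait end. Plus-strand junctions downstream, where a rejoined end that has lost bases would be read, numbered 1306, with a median distance of 1292.5 bp and quartiles of 741 and 2740.5 bp. Minus-strand junctions upstream numbered 232, with a median of 2522 bp. Such a read runs away from the cut on its other side, in the inverted direction. Minus-strand junctions downstream numbered 89 (median 1108 bp) and plus-strand junctions upstream 30 (median 1765.5 bp). Many downstream plus-strand starts stood on adjacent bases. With positions within 5 bp merged, downstream plus-strand and upstream minus-strand junctions numbered 279 and 182 at 11 bp to 10 kb. At 11 bp to 1 kb they numbered 5 and 21, so the order turned. Merging joins dense runs of any length, so this turn does not show which kind had more joins.

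In the non-targeting library the 11 junctions at 11 bp to 10 kb were all of the downstream plus-strand kind, at 442 to 7721 bp with a median of 1067 bp. The plus-strand share within 10 kb was 100% of 19 there and 80.8% of 1668 in the targeting library, which did not pass after adjustment (Fisher's exact test, adjusted p = 0.0528). All 11 positions were also held by the targeting library, with 12 reads in the non-targeting and 44 in the targeting library, and 8 of them were in the 10Q library. The bases within 100 bp of these positions were used as plus-strand starts in the targeting library to very different extents, from 2.49% at the position 7721 bp from the bait end to 83.1% at 490 bp, with a median of 67.2%. The 8 positions within 10 bp of the bait end were in both libraries as well.

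**Figure D2:**
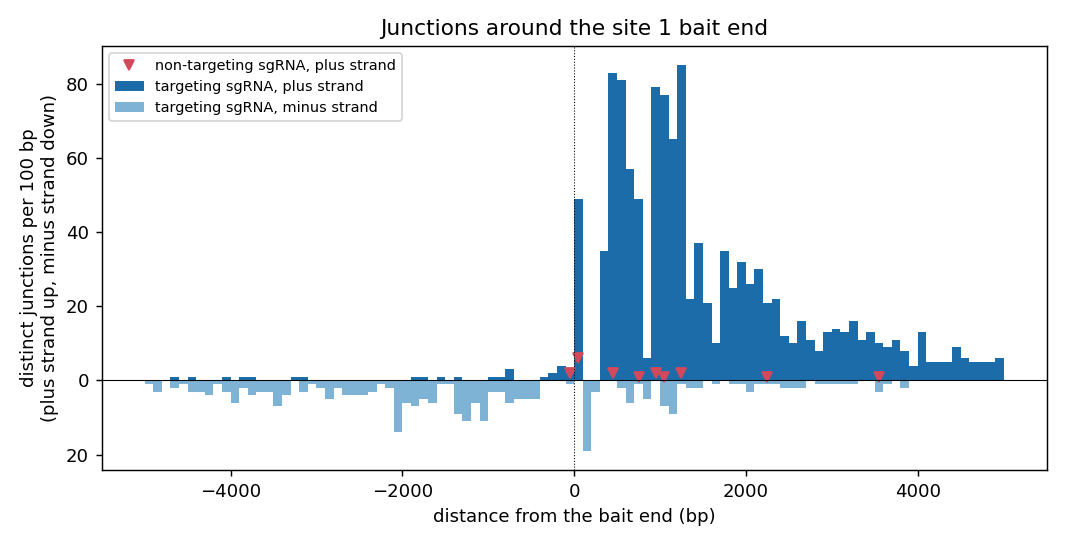
Distinct junctions per 100 bp within 5 kb of the bait end, plus strand upward and minus strand downward, for the targeting library (bars) and the non-targeting library (red triangles). Targeting junctions pile up on the plus strand downstream and, less, on the minus strand upstream; the non-targeting triangles all stand on the plus strand, and its junction at 7721 bp lies outside the plot.

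Single positions near the bait were read many times in the targeting library, and those given here were picked by their reads in it. The non-targeting library had 12 plus-strand reads in all at 11 bp to 10 kb. Its 0 reads at a position picked in this way are therefore no further result. The position 1307 bp downstream (98170033) had 84 reads in the targeting library, 39 in the 10Q library, 2 in the 92Q library and 0 in the non-targeting library. The position at 455 bp (98169181) had 64, 53, 3 and 0 reads, and that at 452 bp (98169178) had 60, 60, 2 and 0. Their aligned reads ended at 13, 7 and 10 different bases. The 10 most-read positions within 10 kb included the bait end, and the other 9 had 29 to 84 reads in the targeting library and 0 in the non-targeting library.

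The plus-strand starts stopped within short windows. Within 4 kb downstream, 5 windows of 80 bp or more held no plus-strand start in the targeting library although bases on both sides were used: 98168808 to 98169075 (268 bp), 98169529 to 98169620 (92 bp), 98170052 to 98170166 (115 bp), 98170266 to 98170402 (137 bp) and 98172547 to 98172683 (137 bp). The 100 bases before and after the third window held 85 and 58 distinct starts. The same windows held 11, 2, 1, 1 and 3 plus-strand starts in the 10Q library and 0 in the 92Q and non-targeting libraries. Downstream plus-strand junctions at 11 bp to 10 kb numbered 146 in the 92Q and 11 in the non-targeting library, against 1306 in the targeting library. With so few, a count of 0 in a short window says little. Minus-strand starts were found inside every window in the targeting library, 22, 5, 4, 1 and 2. The last 4 windows are shorter than the median alignment of 141 bp.

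The third window falls in the promoter window that RefSeq gives for Gm33583 (250 bases before a transcript start to 50 after it), whose first 98 bases also belong to the promoter window of Dach1 on the opposite strand. This window belongs to a transcript that starts inside the span printed above for Gm33583, so all of it lies within that span. The sequence is printed to show where reads began: capitals mark each base at which a plus-strand read of the targeting library started, 145 of 300. Reads of any mapping quality were used, and 2 of these bases were starts in the non-targeting library as well. Whether each start is a join of a cut end was not tested. The window lies at chr14:98169918-98170217, plus strand, GRCm38.p6 (mm10), 1192 to 1491 bp downstream of the bait end.
Gm33583 promoter window: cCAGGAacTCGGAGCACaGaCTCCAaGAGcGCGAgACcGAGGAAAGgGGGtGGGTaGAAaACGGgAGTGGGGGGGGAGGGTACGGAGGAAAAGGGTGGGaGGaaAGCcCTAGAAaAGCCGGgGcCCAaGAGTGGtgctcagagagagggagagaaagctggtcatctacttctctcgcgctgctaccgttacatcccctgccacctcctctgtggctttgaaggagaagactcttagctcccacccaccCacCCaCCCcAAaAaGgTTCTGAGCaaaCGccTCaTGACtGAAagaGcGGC

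In that stretch 112 of the first 134 bases were used, then 0 of 115, then 33 of the last 51, by 790 reads in all. The 10Q library used 95, 1 and 32 bases of the same segments, the 92Q library 17, 0 and 1, and the non-targeting library 2, 0 and 0. Reads of the targeting library lay over the base 10 bp before the end of the unused stretch (293 reads) and over the base 30 bp after it (69 reads). None covered both, and in the 10Q library 1 did. A plus-strand alignment of 141 bp that starts before the unused stretch ends short of the second base. For such reads the absence follows from how the stretch was chosen and is no further result. The unused stretch ends inside a run of 4 CCCA units at 98170157 to 98170172. A run of 3 or more CCCA units on either strand is present in 65 of 32851 RefSeq promoter windows of this length (0.198%). The match is a description of the letters, and its part in the missing starts was not tested.

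The direction of the prey reads changed with distance along chromosome 14 in the targeting library. A junction faces away from the bait end when it is on the plus strand downstream or the minus strand upstream. Of 507 junctions at 11 bp to 1 kb, 90.5% faced away, and of 1150 at 1 to 10 kb, 93.8%. With positions within 5 bp merged, these were 50.0% of 52 (35.8 to 64.2) and 87.0% of 500 (83.7 to 89.8). Merging removes most from the densest kind, downstream plus-strand starts, so it cannot tell what the share in the first kb rests on. In the first kb 94.8% of 381 well-mapped junctions faced away. So did 95.3% of 363 with at least 2 reads and 90.4% of 586 collapsed on the far end of the alignment. Farther out and without merging, the share was 76.0% of 250 at 10 to 100 kb, 56.0% of 75 at 100 kb to 1 Mb and 32.9% of 79 at 1 to 5 Mb (22.7 to 44.4). It was 39.6% of 96 at 5 to 20 Mb (29.7 to 50.1) and 50.3% of 183 beyond 20 Mb (42.8 to 57.7). At 1 to 20 Mb, 64 of 175 faced away and 111 toward the bait end, 36.6% with an interval of 29.4 to 44.2 that lies below 50%.

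The minority facing away at 1 to 20 Mb was made of both flanks. Downstream, 29 were on the plus and 57 on the minus strand, and upstream 35 were on the minus and 54 on the plus strand. In the 10Q library 174 of 428 junctions at 1 to 20 Mb faced away, 40.7% (36.0 to 45.5), and in the 92Q library 13 of 22. The non-targeting library had 0 junctions from 10 kb to 20 Mb, so it gives no background for this share. Of its 8 junctions beyond 20 Mb, all upstream, 7 faced away. The share at 1 to 20 Mb in the targeting library was 39.3% of 117 well-mapped junctions and 33.3% of 48 with at least 2 reads, the latter with an interval (20.4 to 48.4) that also lies below 50%.

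**Figure D3:**
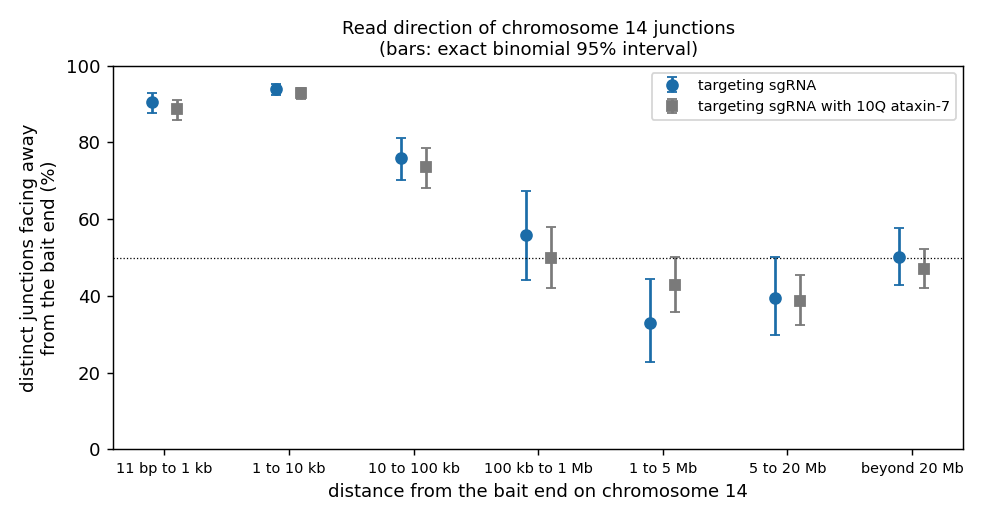
Percent of distinct chromosome 14 junctions that face away from the bait end, by distance, in the targeting library (circles) and the 10Q library (squares), with exact binomial 95% intervals and a dotted line at 50%. Both fall from 93.8% and 92.9% at 1 to 10 kb to under 50% at 1 to 20 Mb; with positions within 5 bp merged, the values at 11 bp to 1 kb are 50.0% and 45.2%.

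The junctions on other chromosomes differed in kind as well as in number. Well-mapped junctions made up 38.3% of 1522 in the targeting library and 62.4% of 101 in the non-targeting one (Fisher's exact test, adjusted p = 1.11e-05). Among junctions with at least 2 reads the shares were 55.0% of 380 and 64.9% of 37, and the difference did not pass (exact test as above, adjusted p = 0.479). The plus-strand shares, 51.4% and 40.6%, did not pass (Fisher's exact test, adjusted p = 0.0528).

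Non-targeting junctions lay more often near gene starts. Within 10 kb of the start of a protein-coding gene were 25 of 101, 24.8% (16.7 to 34.3), against 177 of 1522, or 11.6% (10.1 to 13.3), with the targeting guide (Fisher's exact test, adjusted p = 0.000911). Such windows cover 12.1% of the chromosomes' length, as drawn from 17492 of 21779 coding genes with a start in the table. Among well-mapped junctions the shares were 23.8% of 63 and 14.6% of 583, which did not pass (Fisher's exact test, adjusted p = 0.131). Of the other libraries with the site 1 guide, 10Q stood at 11.6% of 2243 and 92Q at 18.1% of 554 (14.9 to 21.5). At site 2 the targeting and non-targeting shares were 13.7% of 153 and 14.6% of 48, a pair that was not tested.

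The most-read position off chromosome 14 was the same in both libraries, and it lay in the paralog of the bait gene. It was chrX:113298692 on the minus strand, 1196 bp inside the start of Dach2 (chromosome X, 113297496 to 113836386). It had 31 reads in the non-targeting library, 44 in the targeting library, 38 in the 10Q library and 32 in the 92Q library. The ratio of the targeting to the non-targeting count was 1.42 (0.876 to 2.32), an interval that includes 1, whereas distinct junctions differed 30.3-fold (25.4 to 36.4). The shares of all reads were 4.96% and 0.501%.

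The Dach2 reads began at a single base in each of the 4 libraries. Their alignments ended at 6 different bases in the non-targeting library and 9 in the targeting library, and 16 of 31 and 21 of 44 were well mapped. The next most-read position on another chromosome had 7 reads in the non-targeting library and, at a position of low mapping quality, 38 in the targeting library. Bait-end reads differed between libraries in another way, 378, 190, 413 and 17 in the non-targeting, targeting, 10Q and 92Q libraries. Both the bait-end reads in Dach1 and the reads in Dach2 ran toward the start of their gene. Whether the bait primer pairs with Dach2 was not tested, since no genome was given.

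**Figure D4:**
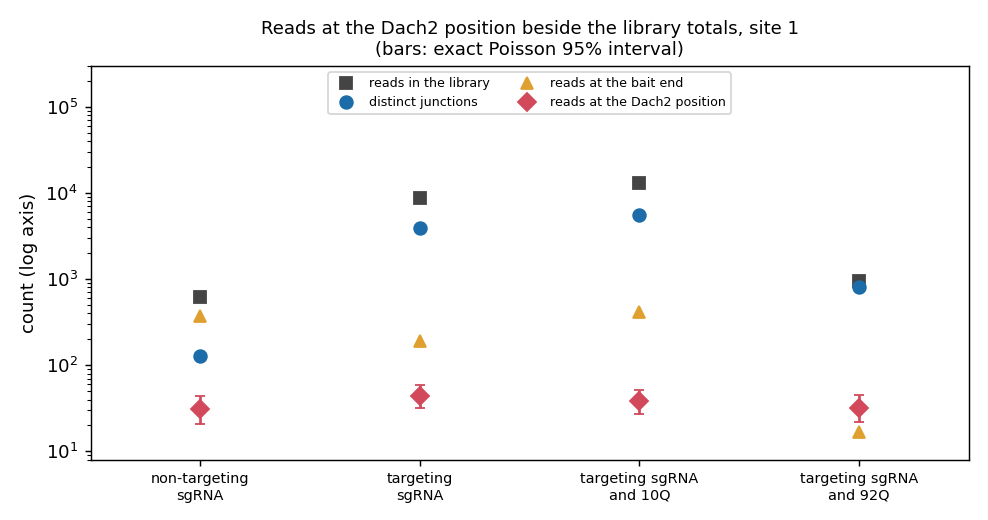
Reads, distinct junctions, reads at the bait end and reads at the Dach2 position in the 4 site 1 libraries on a log axis, with exact Poisson 95% intervals on the Dach2 counts. The Dach2 counts lie between 31 and 44 while the reads in the library run from 625 to 13139.

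Further positions recurred between the libraries. Of the 101 non-targeting positions on other chromosomes, 14 (13.9%, 7.79 to 22.2) were held by the targeting library at the same base and strand, 0.92% of its 1522. Of the 101, 23 (22.8%, 15.02 to 32.2) were in at least 1 other site 1 library and 0 in the 351 positions of the 4 site 2 libraries. Besides Dach2, 13 positions were in both libraries, with 30 reads in the targeting and 36 in the non-targeting library. A well-mapped read in at least 1 site 1 library was found at 12 of the 14, and 8 positions were shared when only well-mapped junctions of each library were counted (8 of 63, 12.7%).

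Dach2 and 2 further positions were in all 4 site 1 libraries. One lay in Shld1 (chr2:132690179, minus strand), which encodes a subunit of the shieldin complex that limits resection of broken ends, with 1 read in the non-targeting, 2 in the targeting, 1 in the 10Q and 2 in the 92Q library. The other lay in Atp6v1c1 (chr15:38668896, minus strand), a subunit of the vacuolar proton pump, with 1, 5, 3 and 1 reads. The most-read of the others in the non-targeting library was in Pabpc1l, a cytoplasmic poly(A)-binding protein gene (chr2:164047606), with 7 reads there, 2 in the targeting and 11 in the 10Q library. The position 2014 bp from Npffr2, a neuropeptide receptor gene, had 6, 2 and 3 reads, and one in Cntrl, a centrosomal protein gene, had 4, 3 and 8. These counts are small, and none stands at the level of Dach2.

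Well-mapped positions read often in the targeting library were mostly its own. The position at chr17:28555800, 2410 bp from Clps, the colipase gene, had 11 reads in the targeting library and 0 in the other 3. Those reads all ended at 1 base, so they cannot be told from copies of 1 molecule. Positions in Atf6, which encodes an endoplasmic reticulum stress factor (chr1:170722387), and Galnt18, a glycosyltransferase gene (chr7:111549314), had 7 reads each and 0 elsewhere. Their reads ended at 3 different bases each. Of the targeting positions on other chromosomes, 69 of 1522 (4.53%) were also in the 10Q library, and of the well-mapped ones 13 of 583 (2.23%).

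Clusters of junctions were found in the targeting library. Outside 1 Mb of the bait end, 27 loci held at least 3 distinct junctions with gaps of at most 10 kb, and the non-targeting library had 0. On other chromosomes there were 25, with 148 junctions, 9.72% of all there. None of those 148 was well mapped, and 19 of the 25 loci spanned under 200 bp. The largest held 25 junctions in 37 bp on chromosome 13 (26615409 to 26615445), where the 10Q library had 29. Of the 2 loci on chromosome 14, one of 4 junctions (100594090 to 100613312, nearest to the transcription factor gene Klf12) was all well mapped, and one of 3 junctions in Gpc6 had 2 well mapped.

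At the level of genes, the targeting library had a junction in the body of 628 of 21774 protein-coding genes outside 1 Mb of the bait end (2.88%) and the non-targeting library in 59 (0.271%). The median length of these genes was 115 kb and 108 kb, against 17.2 kb for all. In the targeting library 68 genes held 2 or more junctions, and in the non-targeting library 0. The 4 coding genes with at least 3 well-mapped targeting junctions were all on chromosome 14.

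Pcdh9, a protocadherin of neuronal contacts that lies 4.28 Mb from the bait end, held 9 targeting junctions, of which 6 were well mapped. The 10Q library had 14 and the 92Q library 1. Gpc6, a glypican that binds growth factors at the cell surface, 18.8 Mb away on the other side, held 6 (4 well mapped), with 20 and 3 in the 10Q and 92Q libraries. Samd4, an RNA-binding translational repressor 51.1 Mb away, held 5 (3 well mapped), with 2 and 0 in those libraries. Arhgap22, a GTPase-activating protein of Rac 64.8 Mb away, held 3, all well mapped, with 0 and 1. In each of these the non-targeting library had 0. Dach1 lies within 1 Mb of the bait end and was not counted in these windows.

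For each gene list, the interval of observed over expected junctions from gene length included 1. Of 30 long neural genes, 16 held a targeting junction, beside the 2.88% of all coding genes, and these genes have a median length of 1139 kb. Their 25 junctions were 1.08 times the expected number (0.70 to 1.59). Dlg2, a synaptic scaffold gene, held 5 (1 well mapped), and Csmd3, Erbb4 and Grik2 held 2 each, with 2, 2 and 1 well mapped. The non-targeting library had 1 junction in this list (3.33% of the 30 genes, beside 0.271% of all coding genes).

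Of 14 genes of common fragile sites, which are regions that break under replication stress, 7 held a targeting junction. The share of all coding genes was 2.88%, and the median length of the list was 1397 kb. The 14 junctions off chromosome 14 were 1.31 times the expected number (0.72 to 2.20). Fhit, the gene of the most fragile human site, lies on chromosome 14 and held 3 targeting junctions (2 well mapped) against 10 in the 10Q library. Naaladl2 held 2, both well mapped, and Immp2l held 2, neither well mapped. The non-targeting library had 0 in the list.

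The remaining lists held 1 to 3 targeting junctions each, with intervals around the expected number that include 1. Of 32 genes of double-strand break repair, 3 held a targeting junction (9.38%), 2.54 times the expected number with an interval of 0.52 to 7.41. Of 16 sympathetic and neuroblastoma genes 1 did (6.25%). Of 11 genes of the dachshund network outside 1 Mb of the bait end 2 did (18.2%), one of them Dach2. The share of all coding genes was 2.88%. In the non-targeting library the counts were 0, 0 and 1, the last being Dach2, beside 0.271% of all coding genes.

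Against chromosome length, targeting junctions on other chromosomes stood above the expected number with an interval clear of 1 on 2 of 19 chromosomes (10.5%) and below it on 2 (10.5%). Above were chromosome 8, at 1.29 times (1.05 to 1.57), and chromosome 18, at 1.43 times (1.13 to 1.79). Below were chromosome 3, at 0.77 times (0.61 to 0.97), and chromosome 9, at 0.61 times (0.45 to 0.81). With well-mapped junctions alone, chromosomes 8 and 9 stayed clear of 1 (1.43 and 0.519 times) and chromosomes 3 and 18 did not (0.937 and 1.29 times). In the non-targeting library chromosome 10 was above, at 2.47 times (1.32 to 4.23) from 13 junctions (1 of 19, 5.26%), and none was below (0.0%). No copy number of the line was analysed here.

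**Figure D5:**
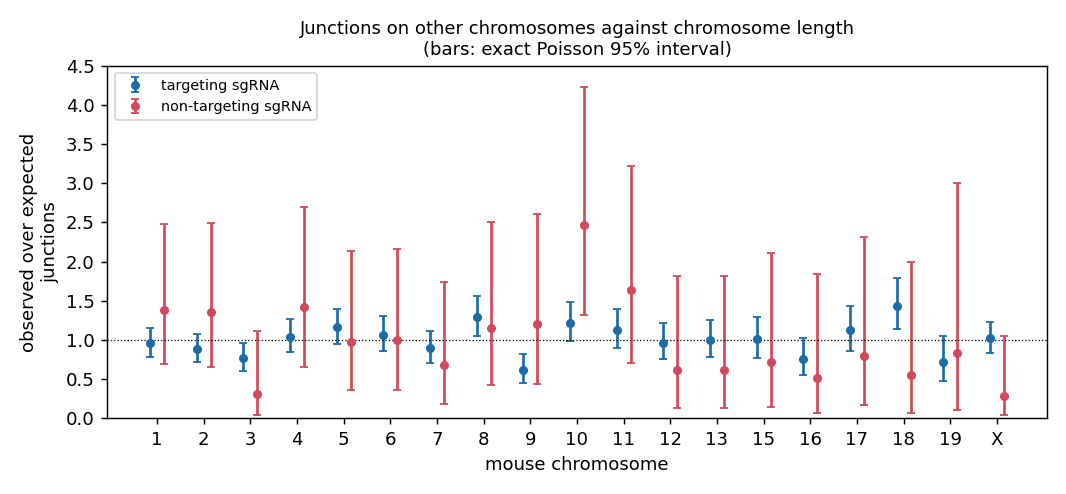
Observed over expected junctions on each chromosome other than 14 in the targeting (blue) and non-targeting (red) libraries, with exact Poisson 95% intervals and a dotted line at 1. Targeting values run close to 1, with chromosome 9 at 0.61 and chromosome 18 at 1.43, and the non-targeting intervals are several times wider.

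The difference in near-bait share was set against that of site 2, the second bait on chromosome 14, cut by its own guide in the same kind of cells. At site 2 the share within 10 kb was 67.8% of 575 in the targeting and 16.9% of 59 in the non-targeting library. The odds ratios were 4.25 at site 1 and 9.92 at site 2, whose difference did not pass Zelen's exact test (adjusted p = 0.114) but did after positions within 5 bp were merged (Zelen's exact test, adjusted p = 0.0225). Well-mapped shares on other chromosomes were lower with the targeting guide at site 2 as well, 39.9% against 58.3%. Among junctions with at least 2 reads the site 2 difference was 30.0 points in the other direction. That value rests on very few junctions, since 51 of all 59 site 2 non-targeting junctions had a single read. The odds ratios of the well-mapped shares, 0.377 and 0.478, did not pass the test of a difference (Zelen's exact test, adjusted p = 0.556).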

How the data were processed

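Members and gene lists were chosen with earlier results of these data known. The authors deposited 2 lists of aligned reads per library, on-cut and off-cut, and the only measured value in them is a score, the mapping quality (0 to 42 in the deposited lists). Per the submitters' processing notes, Bowtie2 was used with mm10 and mm9, with neither its version nor the part of each build. Coordinates here are mm10. How the authors filtered reads is not given in the sources used here. The read names of these libraries show 1 run and lane. No read name of the 2 libraries recurred in another library.

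Here the 2 lists of a library were joined, reads were placed at their 5′ end, and equal positions were counted once. Full-length alignments (141 bp, give or take 1), 66.3% and 71.7% of the targeting and non-targeting libraries, had a median mapping quality of 42 and 24, and other lengths of 0. Shares were compared with 2-sided Fisher's exact tests, adjusted by Benjamini-Hochberg over 8 tests at a threshold of 0.05 (SciPy 1.17.1). Intervals are Clopper-Pearson or exact Poisson at 95%, and a count of 0 was given a floor of 3. Genes and promoters came from RefSeq GRCm38.p6. Named genes were Dach1 and Dach2, up to 15 genes with at least 3 well-mapped targeting junctions outside 1 Mb, and list members with at least 2 junctions. A list member that meets this rule is not reported here. The procedures were tested on simulated data. Positions in the text outside this rule were chosen after their values were seen.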

Additional observations from a re-analysis of the deposited data

Results flagged for a closer look

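Reads on sequences outside the assembled chromosomes, which no comparison used, numbered 24 in the targeting library and 0 in the non-targeting library. The floor of 3 in 625 reads is a share of 0.48%. As a share of reads they were 0.272%, below that floor, so a difference from the non-targeting library was not detectable at this depth. They lay at 18 positions on 6 sequences, 15 of them on the mitochondrial genome, and 7 were well mapped.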

How the results depend on the processing

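Across these alternatives, 68 values kept their direction and, where a test was run, their side of the threshold, though not always their size. Of the rest, 10 passed only under the alternative, 4 no longer passed, 4 untested ratios moved in size and 1 turned. Counted as reads, the share within 10 kb turned to -3.33 points. With at least 2 reads, the 10 kb to 1 Mb difference (7.48 points, exact adjusted p = 0.144) and the well-mapped difference (-9.86 points) no longer passed, and the gene-start difference did not pass at mapping quality 30 (-9.23 points) or with full-length alignments (141 bp, give or take 1) (-8.31 points, exact adjusted p = 0.0695). Other differences passed only under an alternative. The plus-strand share within 10 kb did as reads (-9.05 points), merged within 5 bp (-44.1) and collapsed on the far end of the alignment (-18.8). The share on chromosome 14 beyond 1 Mb did as reads (4.48 points), merged (6.76) and with full-length alignments (6.90). The plus-strand share on other chromosomes did as reads (16.2 points), merged (11.3) and on the far end (12.8). The ratio between sites of the near-bait odds ratios passed when merged (0.215). The cause of these changes was not tested. Tests on reads took PCR copies as independent units, so passing there is no sign of a difference between the libraries. Merging joins dense runs of any length, so a merged share depends on how densely each class was used. The 30.3-fold ratio of distinct junctions was 14.1 as reads, 21.9 merged, 40.8 without positions in both libraries and 21.3 divided by the ratio of Dach2 reads. The far-end, full-length and Dach2 alternatives, and every alternative for the facing-away share, the near-bait classes, the shared positions and the tests between sites, were chosen after seeing the data. No paired analysis was possible because each condition is 1 pooled library with no replicate numbers. The 128 non-targeting junctions limit every share of that library.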
